A study of Mus musculus with 2 samples.

Results

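The Peg10 and Sgce imprinted domain of proximal mouse chromosome 6 was examined in embryonic stem (ES) cells titled as a Dnmt1 knockout. Dnmt1 is the enzyme that copies DNA methylation onto new strands after replication. The members were the genes Peg10, Sgce, Ppp1r9a, Asb4, Calcr, Casd1, Pon2 and Pon3, and all of their probe sets in the platform annotation were taken. All 8 were found among the 18193 genes that had a probe set of their own, with 18 of the 45101 probe sets. 0 probe sets were annotated to a member together with another gene.

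The study compared an ES culture titled as a Dnmt1 knockout (KO) with its control culture on Affymetrix mouse expression arrays, with 1 array per group. It was done to obtain a KO reference for other work on ES cell differentiation. The group came from the sample title alone, since the source name described both samples as controls. The targeted allele, the strain, the passage and whether the KO was a clone were not given, and neither were replicate cultures. Each value below is therefore 1 measurement, no spread between cultures can be given, and no test between the groups was possible.

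In an imprinted domain, the copies of a gene from the mother and from the father are used unequally. Peg10 and Sgce are neighbours read in opposite directions from a shared CpG island, which carries DNA methylation on the maternal copy and not on the paternal one, and both are expressed from the paternal copy. Several genes around them, among them Ppp1r9a, Asb4 and Calcr, are known for preferential use of the maternal copy in some mouse tissues, such as extraembryonic tissue for Ppp1r9a and brain for Calcr. The arrays measured total RNA, so the parental copies could not be told apart, and fewer cells expressing a gene could not be told apart from less RNA per cell.

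The KO array carried little of the Dnmt1 signal. The Dnmt1 probe sets read 262.1, 56.8 and 20.0 on the KO array, against 1949.1, 874.7 and 348.3 on the control array. The KO array was also brighter as a whole, by a median of 0.43 on the log2 scale (1.34-fold over genes). Log2 ratios below are KO over control after subtracting this shift (adjusted) unless they are called unadjusted. Signals below the array's own median, 74.2 on the KO array and 60.9 on the control array, were treated as not measured and are called below the floor. The Dnmt1 signal of 262.1 on the KO array was still above it. All 8 ES cell markers, among them Pou5f1 (3297.0 on the KO array and 2689.7 on the control array) and Sox2 (6962.0 and 5436.6), exceeded both floors. Their adjusted ratios differed, and 1 of the 8 was past 2-fold upwards, beside 1.09% of the 12226 genes above at least 1 floor. This was the pluripotency factor Nanog, which read 1965.5 on the KO array and 592.5 on the control array (log2 ratio 1.30), while Utf1 had -0.62 and Fgf4 -0.51. As a technical scale, the log2 ratios of different probe sets for the same gene had a pooled SD of 0.24 over 4704 genes.

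The paternally expressed pair was higher on the KO array, and every measured neighbour was lower after adjustment for the shift. Sgce had a log2 ratio of 1.22 and Peg10 of 0.40, whereas Ppp1r9a, Casd1 and Pon2 lay between -0.99 and -0.34 and Calcr, below the floor on the KO array, at -0.98 or lower. A gene was measured if it exceeded the floor on at least 1 array. Of the 6 measured members, 1 was higher by 2-fold or more and 0 were lower by 2-fold or more, beside 1.09% and 0.532% of all 12226 measured genes. Unadjusted counts were the same, 1 and 0, beside 4.92% and 0.0982% of all genes, that is 602 genes higher and 12 lower in place of 133 and 65. Calcr has only a bound, so whether it was 2-fold lower is not known. The remaining members, Asb4 and Pon3, were below the floor on both arrays and had no ratio.

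**Figure D1:**
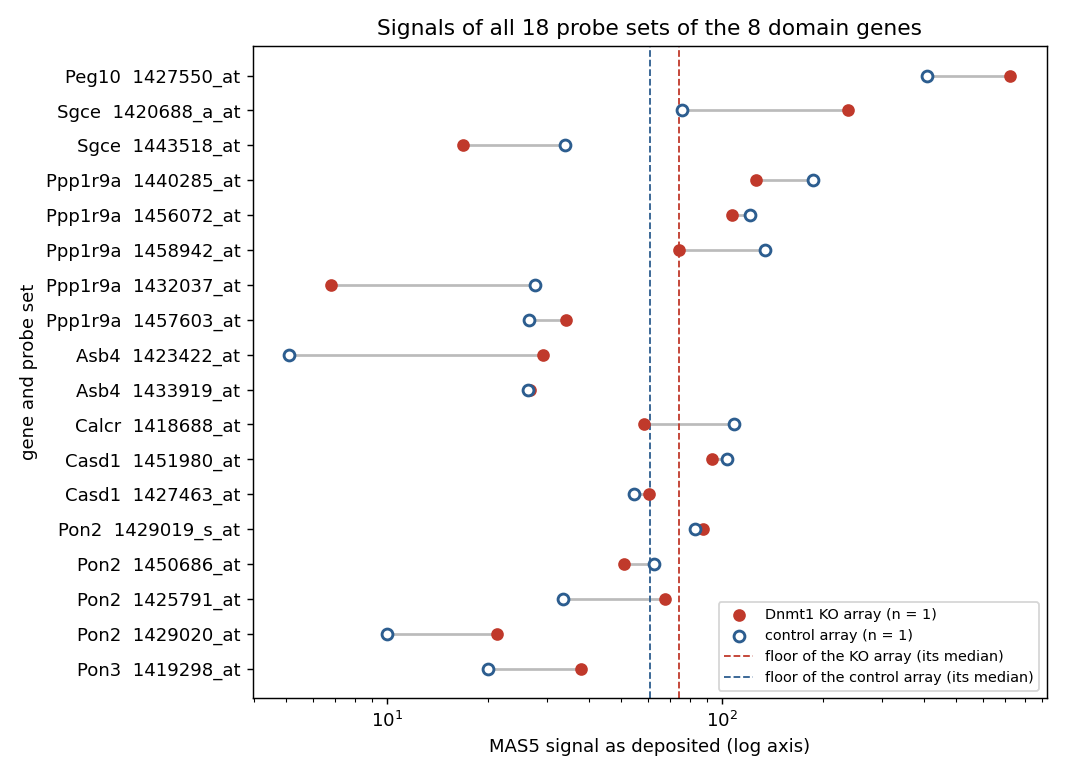
Deposited MAS5 signal (horizontal log axis) of every probe set of the 8 domain genes on the Dnmt1 KO array (filled red) and the control array (open blue), with each array's floor as a dashed line. Peg10 and the brighter Sgce probe set lie to the right on the KO array, at 725.7 and 238.2 against 408.7 and 76.1, while 9 of the 18 probe sets lie below the floor on both arrays.

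Peg10, a retrotransposon-derived gene that mice need to form a placenta, was represented by 1 probe set (1427550_at). Its signal was 725.7 on the KO array and 408.7 on the control array, both far above the floor. The unadjusted ratio was 1.78-fold and the adjusted one 1.32-fold. Among the 10995 genes that exceeded both floors, 1039 (9.45%), Peg10 included, had a ratio as high or higher. With the measured genes split by mean signal into 4 bands of equal size, the middle 80% of log2 ratios in the band of Peg10 ran from -0.33 to 0.42 and held that of Peg10. Peg10 was thus brighter on the KO array, but not by more than many other genes.

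Sgce encodes epsilon-sarcoglycan, a membrane glycoprotein whose paternal copy is mutated in the human movement disorder myoclonus-dystonia. Its brighter probe set (1420688_a_at) read 238.2 on the KO array and 76.1 on the control array. The control signal was only a little above the floor of 60.9. The ratio was 3.13-fold unadjusted and 2.33-fold adjusted, and 56 of 10995 genes (0.509%), Sgce included, were as high or higher. In its signal band, where the middle 80% of log2 ratios ran from -0.43 to 0.49, 2% of genes were 2-fold or more higher. The other Sgce probe set (1443518_at) read 16.8 on the KO array and 34.0 on the control array, below both floors and therefore without a ratio, and its raw signals ran the opposite way. The count of 1 member above 2-fold rested on the brighter probe set alone.

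The pair lay above its neighbours. The mean log2 ratio of Peg10 and Sgce was 0.81 and the median of the 4 measured neighbours was -0.77 or lower. The difference, at least 1.59 with this floor and scaling, does not depend on the shift. It was 1.30 with a floor at the 25th percentile or no floor, where Asb4 and Pon3 also counted. Peg10, the lower of the pair, was still 0.74 above Pon2, the highest neighbour, on the log2 scale. Both sides of that gap were ordinary for their signal, since the middle 80% of log2 ratios in the band of Pon2 and Casd1 ran from -0.53 to 0.40 and held Pon2, with Casd1 (-0.57) just outside. Within the pair, the Sgce ratio was 1.76 times that of Peg10, a gap of 0.82 on the log2 scale that has no replicate check. Over the 6 measured members the median log2 ratio was -0.45 adjusted and -0.03 unadjusted, beside -0.0049 and 0.42 over all measured genes.

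Ppp1r9a, which encodes neurabin, an actin-binding protein that targets protein phosphatase 1, is the next member beyond Peg10, on the side away from Sgce. It had 5 probe sets, of which 3 exceeded both floors. Probe set 1440285_at read 126.6 on the KO array and 187.0 on the control array. Probe set 1456072_at read 107.3 on the KO array and 121.3 on the control array, and 1458942_at read 74.6 and 134.2. Each of the 3 was dimmer on the KO array even unadjusted, against the general shift. For 1456072_at that unadjusted difference, -0.18 on the log2 scale, was smaller in size than the pooled SD of 0.24 between probe sets. The adjusted log2 ratios of the 3 probe sets were -0.99, -0.60 and -1.27, with a mean of -0.95 ± 0.34 (SD, n = 3 probe sets). By its brightest probe set, Ppp1r9a was 1.98-fold lower, just short of the 2-fold threshold. Only 55 of 10995 genes (0.500%), Ppp1r9a included, were as low or lower. Probe set 1458942_at, at 2.42-fold lower, was the 1 of 9 measured probe sets of these members past 2-fold in that direction, and the Sgce probe set was the 1 past it in the other. Among all measured probe sets with 1 gene, 0.561% were past 2-fold downwards and 0.988% upwards. The KO signal of 1458942_at, 74.6, was close to the floor of 74.2. The other probe sets of the gene, 1432037_at (6.8 on the KO array, 27.7 on the control array) and 1457603_at (34.2 and 26.5), were below both floors.

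Calcr, the receptor for the hormone calcitonin, lies farthest from Peg10 on the Sgce side. Its probe set (1418688_at) read 58.4 on the KO array, below the floor, and 108.9 on the control array. It was thus lower by at least 1.97-fold adjusted and at least 1.47-fold unadjusted. Calcr lay in the dimmest of the 4 signal bands and Ppp1r9a in the next, and in each of these 0.851% of genes were 2-fold or more lower.

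The start sites of these lower neighbours, and of the unmeasured Asb4, are shown because CpG dinucleotides are the substrate of Dnmt1. The sequences are RefSeq promoters of assembly GRCm38.p6, 300 bases each, from 250 before to 50 after an annotated start, 5′ to 3′ on the gene's strand, with each CG in capitals. The table of 32851 promoters matched 6 of the 8 members, all but Peg10 and Sgce.
Ppp1r9a, chr6:4903061-4903360, plus strand: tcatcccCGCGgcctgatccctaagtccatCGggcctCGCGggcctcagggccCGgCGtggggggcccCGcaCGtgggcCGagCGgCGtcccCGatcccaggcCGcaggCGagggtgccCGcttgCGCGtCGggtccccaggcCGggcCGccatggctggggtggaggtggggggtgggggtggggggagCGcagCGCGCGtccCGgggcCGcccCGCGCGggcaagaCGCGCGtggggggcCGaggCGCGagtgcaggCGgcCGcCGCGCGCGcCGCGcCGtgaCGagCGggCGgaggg
Calcr, chr6:3763574-3763873, minus strand: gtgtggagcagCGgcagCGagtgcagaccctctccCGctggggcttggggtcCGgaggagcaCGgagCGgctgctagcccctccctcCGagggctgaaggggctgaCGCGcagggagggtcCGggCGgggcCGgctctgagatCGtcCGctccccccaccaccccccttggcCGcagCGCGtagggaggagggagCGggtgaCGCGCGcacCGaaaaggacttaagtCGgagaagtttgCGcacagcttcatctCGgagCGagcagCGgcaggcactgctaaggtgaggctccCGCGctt
Calcr, chr6:3764664-3764963, minus strand: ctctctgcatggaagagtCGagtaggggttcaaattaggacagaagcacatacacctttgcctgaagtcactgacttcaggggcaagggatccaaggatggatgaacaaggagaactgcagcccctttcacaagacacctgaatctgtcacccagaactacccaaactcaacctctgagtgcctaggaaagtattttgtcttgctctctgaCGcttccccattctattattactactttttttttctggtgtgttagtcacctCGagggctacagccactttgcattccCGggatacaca
Asb4, chr6:5383136-5383435, plus strand: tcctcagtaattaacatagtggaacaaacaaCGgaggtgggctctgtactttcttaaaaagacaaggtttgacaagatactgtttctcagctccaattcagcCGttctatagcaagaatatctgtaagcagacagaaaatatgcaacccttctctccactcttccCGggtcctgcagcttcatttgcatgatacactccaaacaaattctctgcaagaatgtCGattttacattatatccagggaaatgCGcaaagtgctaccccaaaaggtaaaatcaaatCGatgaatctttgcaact

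The Ppp1r9a start held 48 CG, and 1.22% of all promoters in the table held as many. The other listed start of Ppp1r9a held 10 CG. The first Calcr start shown held 29 CG (12.9% of promoters held as many) and the second held 4. The Asb4 start held 6, close to the median of 7 over all promoters, and its other listed start held 8. Pon2 and Casd1 also had CG-rich starts, with 31 and 23, while Pon3 had 7 and the second Casd1 start had 5. The hexamer TGCCGC, the core of the motif bound in its methylated form by the imprint-keeping factor ZFP57, was searched on both strands. It occurred in 3 of the 10 listed promoters of these members, those of Pon3, the CG-rich Calcr start and the CG-rich Casd1 start, and in 11.6% of all promoters. Which start was in use in these cells was not measured.

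Casd1, a Golgi enzyme that O-acetylates sialic acids, is the next member beyond Sgce on the other side. Its brighter probe set (1451980_at) read 93.5 on the KO array and 103.3 on the control array, which is 1.48-fold lower adjusted and 1.10-fold lower unadjusted. The other (1427463_at) read 60.7 on the KO array and 54.7 on the control array, below both floors, and its raw signals ran the opposite way. By their brightest probe sets, the nearest members on both sides of the pair, Casd1 and Ppp1r9a, were dimmer on the KO array even unadjusted. For Casd1 that difference, -0.14 on the log2 scale, was smaller in size than the pooled SD of 0.24 between probe sets.

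The paraoxonases are lipid-lactone hydrolases encoded side by side beyond Ppp1r9a. Pon2, the intracellular member, was near the floor. Its brightest probe set (1429019_s_at) read 87.8 on the KO array and 82.8 on the control array, a log2 ratio of -0.34 adjusted and 0.08 unadjusted. Its direction thus depended on the scaling. Probe set 1450686_at read 50.8 on the KO array, below the floor, and 62.7 on the control array. The other Pon2 probe sets, 1425791_at (67.5 on the KO array, 33.6 on the control array) and 1429020_at (21.3 and 10.0), were below both floors, as was Pon3 (38.0 and 20.0). Asb4, a substrate receptor of a Cullin-5 ubiquitin ligase, read 29.3 and 26.7 on the KO array and 5.1 and 26.4 on the control array with its 2 probe sets. These signals lay below both floors and show no order.

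**Figure D2:**
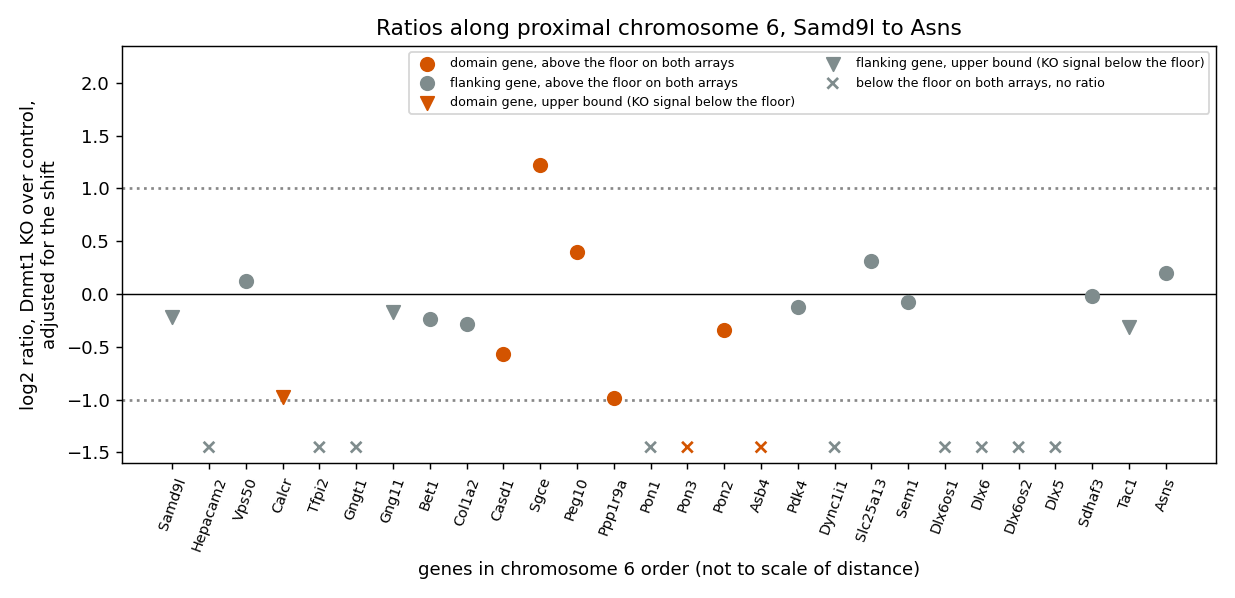
Log2 ratio of KO over control adjusted for the shift (vertical axis) for the 28 genes from Samd9l to Asns that had their own probe set, in chromosome order, 1 point per gene from its brightest probe set. Sgce (1.22) and Peg10 (0.40) stand above, and Casd1 (-0.57), Ppp1r9a (-0.99) and Calcr (at most -0.98) below, the flanking genes above both floors, which lie between -0.28 and 0.32. The gap between Peg10 and the highest of these, Slc25a13 (0.32), is smaller than the pooled SD of 0.24 between probe sets. Triangles are upper bounds, whose true position below the mark is not known.

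The ratios of the wider region were smaller in size where genes exceeded both floors. Some of these genes, such as Asns (2061.1 on the KO array, 1339.7 on the control array), were brighter than every member. In the brightest signal band 0.556% of genes were 2-fold or more higher and 0.164% lower. The shares were 2% and 0.851% in the band of Sgce and Ppp1r9a. Between Samd9l and Asns, 28 genes had a probe set of their own and 17 were measured, 11 of them outside the member list. None of these 11 was 2-fold higher or as high as Peg10. The highest, Slc25a13 (0.32), was below Peg10 (0.40) by less than the pooled SD of 0.24 between probe sets. The 8 above both floors ran from -0.28 to 0.32, and the other 3, Samd9l, Gng11 and Tac1, have only upper bounds, so how low they lay is not known. The median of the 11 was -0.12 (0.31 unadjusted). A list of 20 flanking genes, which begins a little before this stretch, had 14 measured genes, a median of -0.10, and 0 genes shown past 2-fold.

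The mitochondrial aspartate-glutamate carrier Slc25a13 had the highest flanking ratio, with 933.6 on the KO array and 558.2 on the control array (0.32). Krit1, an endothelial junction protein gene, had 0.21, the asparagine synthetase gene Asns 0.20 and the endosomal tethering gene Vps50 0.13. Ankib1 had -0.01, the complex II assembly factor Sdhaf3 -0.02 and the proteasome subunit Sem1 -0.07. The pyruvate dehydrogenase kinase Pdk4 had -0.12, the sterol demethylase Cyp51 -0.13, the vesicle transport gene Bet1 -0.24 and the collagen gene Col1a2 -0.28. Gng11, Samd9l and the neuropeptide gene Tac1 were below the floor on the KO array, with log2 ratios of at most -0.17, -0.21 and -0.32. Pon1, Dlx5, Dlx6, Tfpi2, Gngt1 and Dync1i1 were below both floors. Across chromosome 6 the median of 511 genes above both floors was 0.03. Of its 578 measured genes, 1.38% were past 2-fold upwards and 0.519% downwards.

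**Figure D3:**
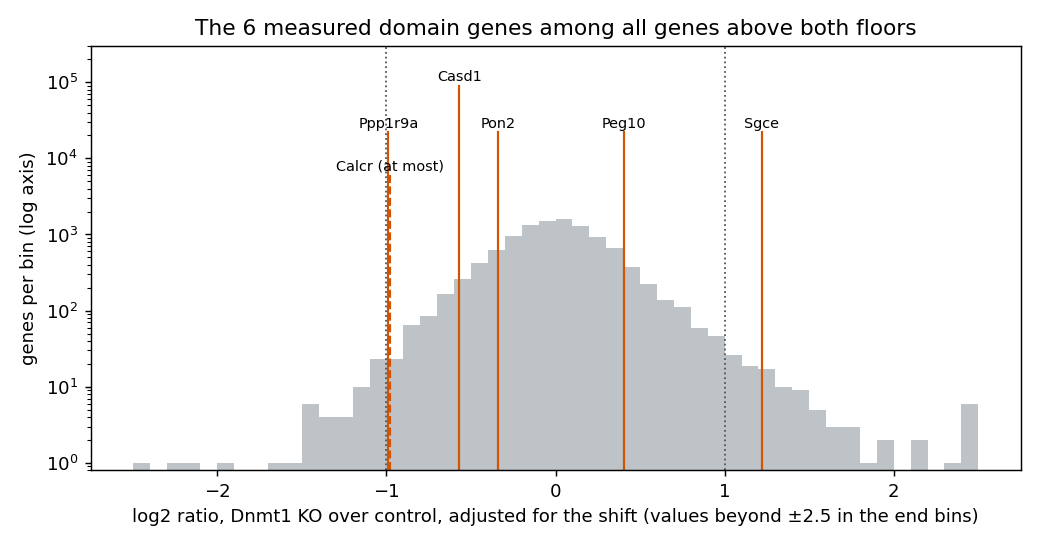
Histogram of the log2 ratio of KO over control adjusted for the shift for the 10995 genes above both floors (count per bin, log axis), with the 6 measured domain genes as orange lines. Dotted lines mark 2-fold, the dashed line of Calcr is an upper bound, and the Sgce and Ppp1r9a ratios (1.22 and -0.99) lie in opposite tails while Peg10 (0.40) lies on the shoulder.

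Genes related to the members by function were set beside them. Peg10 belongs to a family derived from Sushi-ichi retrotransposons. Of 10 other family genes listed, 5 had a probe set of their own and 3 were measured. Of these, 1 was at least 2-fold higher and 0 lower, beside 1.09% and 0.532% of all measured genes. This was the X-linked gene Ldoc1, which read 289.2 on the KO array and 88.2 on the control array (log2 ratio 1.29). Rtl5 had 0.11 and Rtl6 -0.02. The KO signal of Ldoc1 was well above the floor and its control signal was near it, as for Sgce.

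Epsilon-sarcoglycan is related to the sarcoglycans of the dystrophin complex, which links the cytoskeleton to the matrix. Of 9 measured genes of this complex, 0 were past 2-fold (all measured genes: 1.09% higher and 0.532% lower), with a median of -0.05. Unadjusted, 2 were higher and 0 lower, beside 4.92% and 0.0982% of all measured genes. Beta-sarcoglycan, Sgcb, read 241.2 on the KO array and 145.5 on the control array (0.30). Alpha-sarcoglycan, Sgca, read 39.5 on the KO array, below the floor, and 74.4 on the control array (at most -0.43). Above both floors, the largest ratios in size belonged to Sntb1, a syntrophin (0.84), to Dtnb, a dystrobrevin (0.68), and to Sntb2 (-0.33). The Sgce ratio of 1.22 was thus above that of each measured gene of the complex.

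Partners of the neighbours had list medians close to the shift where one is given. Of all 12226 measured genes, 1.09% were 2-fold or more higher and 0.532% lower. At these shares, 0 is the usual count for lists this short. Of 7 measured genes of protein phosphatase 1 and its regulators, which neurabin binds, 0 were 2-fold different, with a median of -0.05 and extremes at Ppp1r10 (-0.29) and Ppp1r2 (0.20), with Ppp1ca, a catalytic subunit, at -0.19. Of 10 genes of the Cullin-5 machinery and the Asb family, 0 were 2-fold different, with a median of -0.07. Asb13 had the largest ratio in size (-0.83, 179.5 on the KO array and 237.2 on the control array), followed by Asb7 (-0.27) and Rnf7 (0.24). Among partners of the calcitonin receptor family, Ramp2 (-0.13) and Ramp3 (-0.33) were measured while Calcrl and Ramp1 were below both floors. Of 8 sialic acid genes, 0 were 2-fold different, with a median of -0.04, and Gne, which makes the sialic acid precursor, had the largest ratio (0.47), before St3gal2 (-0.30) and Siae (-0.28).

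**Figure D4:**
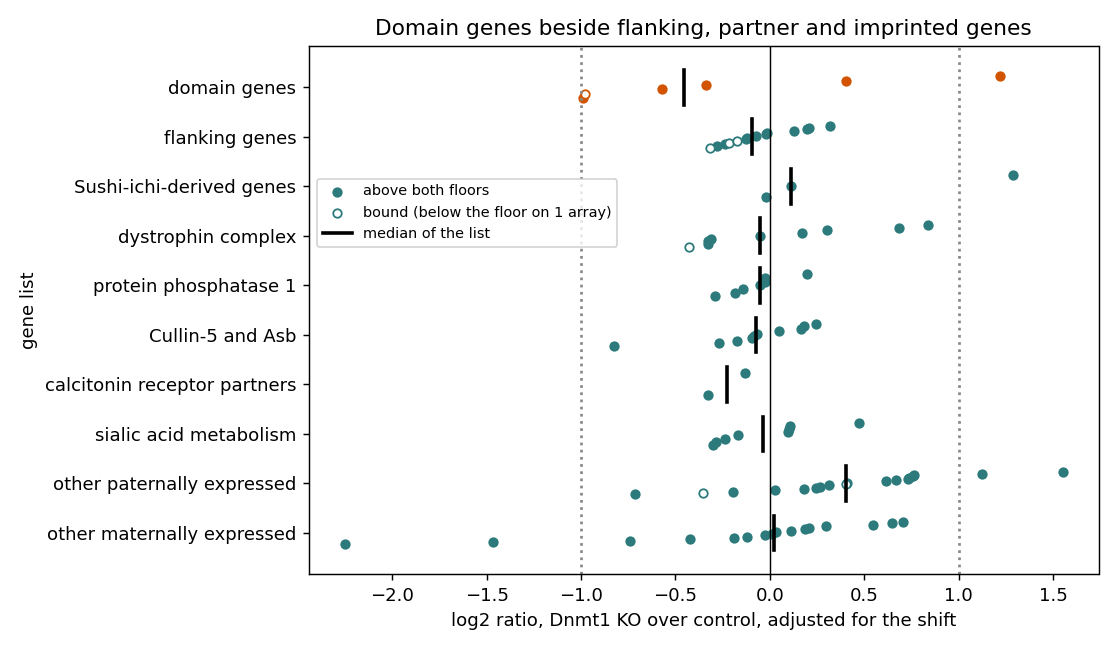
Log2 ratio of KO over control adjusted for the shift (horizontal axis) for each measured gene of the domain and of 9 other lists (rows), with list medians as black bars and bounds as open points. The domain genes above both floors run from -0.99 to 1.22. The medians of the partner lists lie between -0.23 (calcitonin receptor partners) and 0.11 (Sushi-ichi-derived genes), but their single genes run from -0.83 (Asb13) to 1.29 (Ldoc1). Other paternally expressed genes have a median of 0.41.

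Imprinted genes of other domains gave a wider frame. Of 18 other measured paternally expressed genes, 2 were past 2-fold upwards and 0 downwards (unadjusted, 8 and 0). Over all measured genes the shares were 1.09% and 0.532% (unadjusted, 4.92% and 0.0982%), with a median of -0.0049. Of the 18, 15 lay above the shift, with a range from -0.71 to 1.55 and a median of 0.41, close to Peg10. Peg3 (1.12), a zinc finger gene, lay just below Sgce, and Dlk1 (1.55), a Notch-related membrane protein, above it, with Magel2 next (0.77). Of 16 measured genes listed as maternally expressed outside the domain, 0 were past 2-fold upwards and 2 downwards (unadjusted, 2 and 2), with a median of 0.02. The parental class of each listed gene was not measured here. The 2 were the adaptor Grb10 (-2.25) and the cell cycle inhibitor Cdkn1c (-1.47), followed by Phlda2 (-0.74). Of the 16, 9 lay above the shift, up to 0.70 for Ascl2. The lists were chosen with earlier results of these arrays known, so their direction is no independent evidence.

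Peg10 and Sgce are also active in other cell types, and markers of those cells were read on the same arrays. Of 10 trophoblast markers, 7 were measured. Of these, 2 were at least 2-fold higher, beside 1.09% of all measured genes, namely Tfap2c (1.23) and Krt7 (at least 1.17). Ascl2 (0.70), Krt8 (0.42) and Hand1 (0.28) also lay above the shift, and the median of the 7 was 0.42, close to the Peg10 ratio. Sums here and below took each gene's highest signal on each array over all its probe sets, also where that was below the floor. The summed signal of the list was 3635 on the KO array and 1831 on the control array. Its defining genes Elf5, Tpbpa and Gata3 were below both floors, Cdx2 was below the floor on the KO array (54.1, against 70.7 on the control array), and Eomes read 179.1 and 161.0. Of 10 fibroblast markers, 4 were measured and 0 were 2-fold different (Col1a1 -0.66, Col1a2 -0.28, Thy1 0.27), with a median of -0.06. The sums of that list were 1220 on the KO array and 878.1 on the control array. Primitive endoderm markers (5 of 8 measured) summed to 768.3 on the KO array and 557.7 on the control array, with a median log2 ratio of -0.18. Neural markers (5 of 8) summed to 1842 and 1559, with a median of -0.49, and 1 of the 5 lay above the shift. Both lists had 0 genes shown past 2-fold. The shares over all measured genes, here and for the fibroblast list, were 1.09% higher and 0.532% lower. All of these sums are unadjusted, so they contain the 1.34-fold general shift of the KO array. Neurod1 had 0.54, Pax6 -0.52 and Nes -0.50 among the neural markers, and Foxa2 -0.18 and Dab2 0.10 among those of endoderm. The endoderm markers Gata4 (at most -0.54), Gata6 (at most -0.37) and Sox17 (at least 0.32) had only bounds. The part of other cell types in the ratios of Peg10 and Sgce was not tested.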

How the data were processed

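Total RNA of 1 Dnmt1 KO and 1 control ES culture was measured on 1 array each. The authors' deposited intensities are linear MAS5 signals, per the submitters' processing notes. No target value or detection calls were used here. The number of arrays limits the precision. Names came from GEO's platform annotation, with symbols updated through gene identifiers to RefSeq (GRCm38.p6), which held 34741 of 34945 single-gene probe sets. The array's own build is not stated, so only promoter positions, which are RefSeq's, are given. Linear signals were raised to each array's median over non-control probe sets, and each gene's log2 ratio came from its brightest probe set. The median ratio over genes above both floors, 0.43, was subtracted. A gene was measured if above the floor on at least 1 array, and counted from 2-fold. No p-value exists with 1 array per group. All members were named, with the genes of each list past 2-fold or among its 3 largest ratios in size above both floors, every measured flanking gene, and some others chosen after their values were seen (Pou5f1, Sox2, Sgcb, Sgca, further marker genes and genes below both floors). Members and lists were chosen with earlier results of these data known. The ratio script was tested on simulated data (Python 3.11.15, pandas 2.3.3, statsmodels 0.14.6).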

Additional observations from a re-analysis of the deposited data

How the results depend on the processing

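Scaling, floor, probe set choice and threshold were varied. Sgce and Peg10 were above, and Ppp1r9a below, 0 in every setting that gave a value. Unadjusted, the log2 ratios were 1.65 for Sgce, 0.83 for Peg10 and -0.56 for Ppp1r9a. In the other settings they ran from 1.195 to 1.277 for Sgce, 0.38 to 0.44 for Peg10 and -1.01 to -0.94 for Ppp1r9a. The difference between the pair and its neighbours was 1.30 with a floor at the 25th percentile or with no floor, where Asb4 and Pon3 also counted, and 1.48 to 1.59 elsewhere. The count of members at least 2-fold higher was 0 with a floor at the 75th percentile and 0 without probe sets ending in _s_at, _x_at or _a_at. With the threshold at 3-fold, the adjusted count past it was 0. The first 2 of these settings left Sgce below both floors, so they gave no Sgce ratio and no such difference, and the 75th percentile gave no Ppp1r9a ratio either. The count of members at least 2-fold lower was 2 (Ppp1r9a and Calcr) when centred on chromosome 6. It was 1 (Calcr) with a floor at the 25th percentile and 1 with no floor. With the threshold at 1.5-fold, 2 members (Ppp1r9a and Calcr) were past it downwards. Among all 12226 measured genes, 133 were higher and 65 lower. The counts were 602 and 12 unadjusted, and 121 and 72 when centred on chromosome 6. They were 361 and 388 of 15813 genes with the lower floor, and 48 and 12 of 7145 with the higher one. With no floor they were 929 and 1117 of 18193. At 1.5-fold they were 579 and 519, and at 3-fold 32 and 6. No paired analysis was possible because each group had 1 array. Signals near the floor limit every neighbour.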
